A study of Arabidopsis thaliana with 6 samples.

Results

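The 6 Arabidopsis thaliana genes described here were grouped as the RNA polymerase IV arm of RNA-directed DNA methylation, where small RNAs are made. They are NRPD1 (AT1G63020), RDR2 (AT4G11130), CLSY1 (AT3G42670), CLSY2 (AT5G20420), HEN1 (AT4G20910) and DCL1 (AT1G01040), the last best known for cutting microRNA precursors. They were taken by gene identifier from the authors' table of regions whose methylation differs between rbp-ko-1 and Col-0, and are 6 of the 7699 genes in that table. Together they carried 10 of its 9213 regions. They were chosen by these regions, which the authors selected on the same rbp-ko-1 and Col-0 means that are given below, so that having a region and the size of its difference are descriptions and not results. Whole-genome bisulfite sequencing, which reads unmethylated cytosines as thymine and methylated ones as cytosine, covered 3 libraries of rbp-ko-1 and 3 libraries of Col-0. The rbp-ko-1 plants, also labelled KO27, carry a mutation in RBP45D, a gene for an RNA-binding protein, and Col-0 is the standard laboratory accession. Plants of both genotypes grew on soil for 26 days under 16 h light and 8 h dark, and the labels name no treatment. The labels name only 1 mutant line and do not say which plant part was taken or how many plants went into a library.

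In RNA-directed DNA methylation, RNA polymerase IV transcribes transposons and repeats, and RDR2 copies its transcripts into double-stranded RNA. Dicer enzymes cut this RNA into small RNAs, HEN1 methylates their ends, and argonaute proteins carry them to matching transcripts of RNA polymerase V, where new cytosine methylation is laid down. The pathway sets methylation in all 3 sequence contexts, CG, CHG and CHH (H stands for any base but G), and is best known for CHH methylation at transposons and at gene-flanking repeats. CG methylation inside the exons of active genes, called gene body methylation, is copied at each cell division by a separate enzyme.

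The table gives 1 mean level per genotype for each region, with no value per library, no read count and no coverage. No level below therefore carries an SD or an n, and whether a difference exceeds the spread between libraries could not be tested. The depth behind each level is unknown. Levels are percent of cytosines read as methylated, and differences are rbp-ko-1 minus Col-0 in percentage points. RBP45D itself had 0 entries in the table, and the table gives no check of the mutation.

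The 10 regions fell into 2 kinds. The first were 7 CG regions, all annotated to exons, in NRPD1, RDR2, CLSY1, CLSY2 and DCL1. In rbp-ko-1 the level was lower at 4 of these CG regions and higher at 3. Among the 2154 exonic CG regions in all, 72.0% were lower and 28.0% higher in the mutant. The other 3 were CHH regions annotated to promoters, 2 at CLSY1 and 1 at HEN1, and all 3 were lower in rbp-ko-1. Among the 3441 CHH regions annotated to promoters alone, 96.7% were lower in rbp-ko-1. Among the 6 genes 5 had a CG region, 2 a CHH region and 0 a CHG region. Of 27444 nuclear protein-coding genes, 6051 had any region, 3238 a CG, 3442 a CHH and 370 a CHG region. For the 3 contexts these were 11.8%, 12.5% and 1.35% of all such genes. As the 6 genes were chosen for having a region, their counts compare only with the 6051 genes, not with these shares. No region of these genes overlapped a region of another context. Of all CG regions 14.1% did, so 0 among 7 CG regions is not remarkable, and the share for CHH regions was not computed. None was annotated to a second gene, for which no share over all regions was computed.

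**Figure D1:**
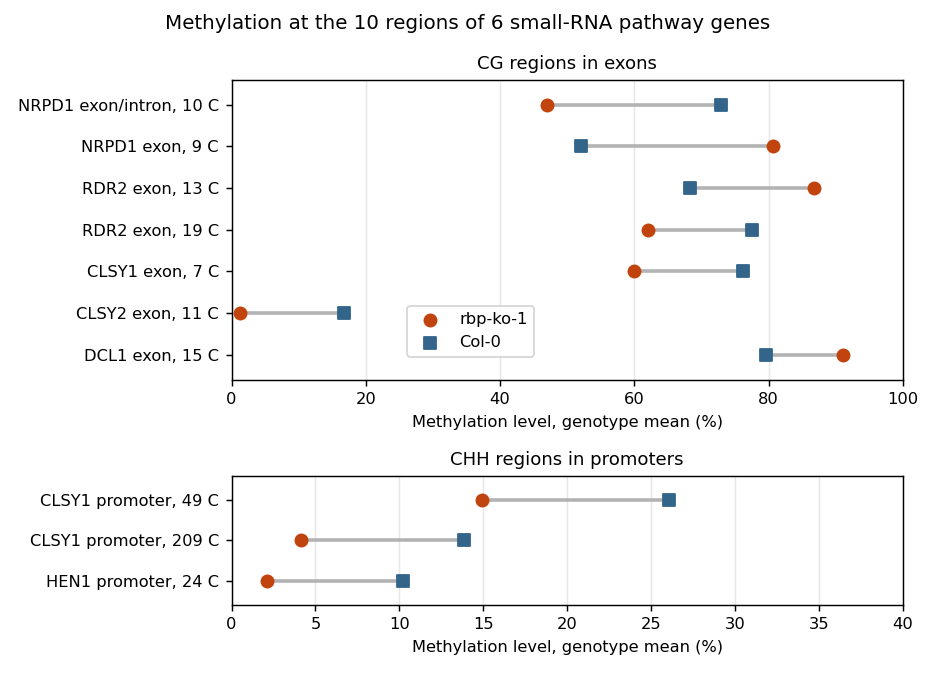
Mean methylation level (%) in rbp-ko-1 (circles) and Col-0 (squares) at the 10 regions of the 6 genes, with the number of cytosines (C) of the context in each region. The 3 CHH regions and 4 of the 7 CG regions have the rbp-ko-1 mean on the left of the Col-0 mean. One region each of NRPD1, RDR2 and DCL1 has it on the right. The table gives no error for these means.

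NRPD1 encodes the catalytic core subunit of RNA polymerase IV, and its CG regions, 1095 bp apart, had opposite directions. At the first (TAIR10 chromosome 1, 23357787 to 23357863, exon and intron, 10 cytosines), the mean was 47.0% in rbp-ko-1 and 72.9% in Col-0, a difference of -25.9 points. At the second (chromosome 1, 23358959 to 23359086, exon, 9 cytosines), the mean was 80.6% in rbp-ko-1 and 52.1% in Col-0, a difference of 28.6 points. The more methylated of the regions in Col-0 was thus the less methylated one in rbp-ko-1. These were the largest differences among the 10 regions, and larger than those of 68.5% and 75.7% of the CG regions in the table.

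RDR2, the RNA-dependent RNA polymerase that works with RNA polymerase IV, also had CG regions of opposite direction, 1368 bp apart in its exons. The region at the lower coordinate (chromosome 4, 6782572 to 6782683, 13 cytosines) had 86.8% in rbp-ko-1 and 68.3% in Col-0. The other (chromosome 4, 6784052 to 6784234, 19 cytosines) had 62.0% in rbp-ko-1 and 77.5% in Col-0. The differences were 18.5 and -15.5 points. In RDR2 the higher region came first along the chromosome, and in NRPD1 the lower one did.

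Taken over both regions of a gene, the size of the remaining difference depended on the weights. With each region weighted by its cytosines, NRPD1 averaged 62.9% in rbp-ko-1 and 63.0% in Col-0 over 19 cytosines. RDR2 averaged 72.1% in rbp-ko-1 and 73.8% in Col-0 over 32 cytosines, a difference of -1.72 points. Plain means gave 1.34 points for NRPD1 and 1.47 points for RDR2, and weights by length gave 8.11 and -2.63 points.

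Opposite pairs of this kind were not rare in the table. Of 134 genes with exactly 2 exonic CG regions, 42 (31.3%) had 1 lower and 1 higher region. The 134 include mitochondrial genes, most with both regions lower, and some pairs entered under 2 gene identifiers. Genes in the copy of mitochondrial DNA on chromosome 2 were not left out either. The share without these groups was not computed, so 31.3% need not hold for other nuclear genes. Among those 42 genes the median gap between the regions was 740 bp, and the median size of the difference over both regions, weighted by cytosines, was 4.86 points, with quartiles of 1.77 and 7.91 points. With these weights NRPD1 and RDR2 lay below the lower quartile. With weights by length NRPD1 had 8.11 points, but the sizes of the 42 genes were not computed with those weights. The place of NRPD1 among them is then unknown.

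**Figure D2:**
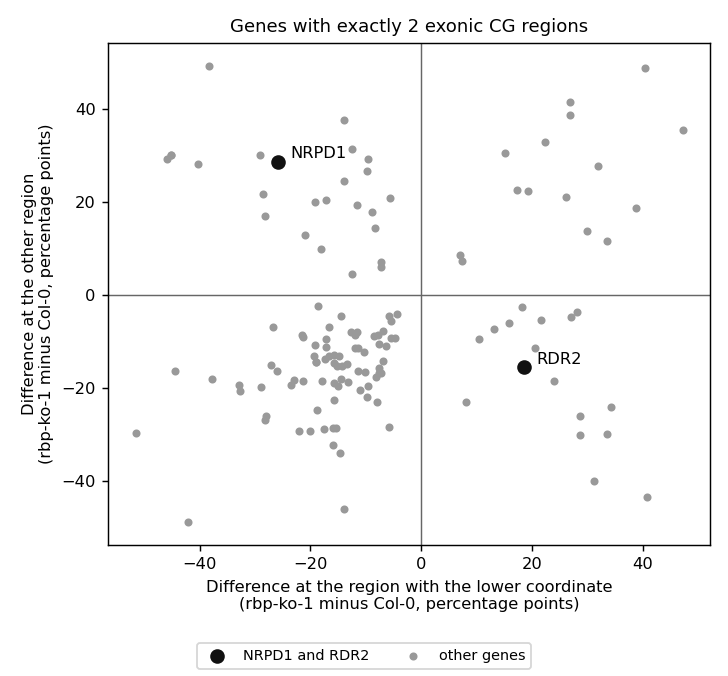
Difference in CG methylation (rbp-ko-1 minus Col-0, percentage points) at the region with the lower chromosome coordinate (horizontal axis) and at the other region (vertical axis), for the 134 genes with exactly 2 exonic CG regions. NRPD1 (-25.9 and 28.6 points) and RDR2 (18.5 and -15.5 points) lie in the quadrants of opposite sign, which hold 42 of the 134 genes. Mitochondrial genes are among the 134, and genes in the copy of mitochondrial DNA on chromosome 2 were not left out.

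CLSY1 and CLSY2 are related chromatin remodelling proteins that recruit RNA polymerase IV to its sites. Each had an exonic CG region that was lower in rbp-ko-1, from very different Col-0 levels. CLSY1, listed in the table as CHR38, had 3 regions, all lower in rbp-ko-1. Its exonic CG region (chromosome 3, 14759174 to 14759251, 7 cytosines, the fewest among the 10 regions) had 59.96% in rbp-ko-1 and 76.2% in Col-0, a difference of -16.3 points. The only region of CLSY2 was an exonic CG region (chromosome 5, 6900414 to 6900500, 11 cytosines) with 1.31% in rbp-ko-1 and 16.7% in Col-0, a difference of -15.4 points. The differences were of similar size, but CLSY1 kept most of its methylation there in rbp-ko-1 and CLSY2 little. The ratio of the rbp-ko-1 mean to the Col-0 mean was 0.787 at CLSY1 and 0.0787 at CLSY2. Levels as low as that of CLSY2 in rbp-ko-1 were common. Lower exonic CG regions of 50% or less in Col-0 had a median of 1.94% in rbp-ko-1. With the bisulfite conversion rate not given, a ratio that rests on so low a level is uncertain.

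The promoter of CLSY1 held the longest region of the 6 genes. This CHH region (chromosome 3, 14762143 to 14762897) spanned 755 bp and 209 cytosines, and had 4.11% in rbp-ko-1 and 13.8% in Col-0. It was longer than 86.6% of the 5834 CHH regions in the table. A shorter CHH region of 150 bp and 49 cytosines lay 86 bp away (chromosome 3, 14761907 to 14762056), with 14.9% in rbp-ko-1 and 26.1% in Col-0. The differences were -9.74 points at the longer region and -11.2 points at the shorter one. In points both were large for CHH, above those of 86.6% and 92.8% of the CHH regions. As ratios they differed: 0.297 at the longer region and 0.572 at the shorter one, against quartiles of 0.282 and 0.450 among lower promoter-only CHH regions. The shorter region, which started from the higher Col-0 level, thus kept a larger share of it than most such regions. Weighted by cytosines, the pair had 6.16% in rbp-ko-1 and 16.2% in Col-0 over 258 cytosines. In the authors' deposited table the area statistic, a signed score of each region, was -1479 at the longer region and -296 at the shorter one.

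HEN1, the methyltransferase that protects the ends of plant small RNAs, had a promoter CHH region (chromosome 4, 11192632 to 11192756, 125 bp, 24 cytosines). Its mean was 2.09% in rbp-ko-1 and 10.2% in Col-0, a difference of -8.13 points. In points this was the smallest among the 10 regions of both contexts, but larger than that of 75.3% of the CHH regions. Among lower promoter-only CHH regions the upper quartile was 8.68 points, above the HEN1 value. The HEN1 ratio of 0.205 was the lowest of the 3 CHH regions and below the lower quartile of 0.282 named above. The region was a small one, with more cytosines than only 12.2% of the CHH regions and a larger area statistic than only 13.8%. With 19.2 CHH cytosines per 100 bp the region was less dense than those of CLSY1, which had 27.7 and 32.7 per 100 bp. The median of promoter-only CHH regions was 27.8 per 100 bp.

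DCL1, the dicer best known for cutting microRNA precursors, had the highest levels of the 6 genes. Its exonic CG region (chromosome 1, 29399 to 29508, 15 cytosines) had 91.1% in rbp-ko-1 and 79.6% in Col-0, a difference of 11.5 points. Seen as the unmethylated share, the values were 8.89% in rbp-ko-1 and 20.4% in Col-0. The difference was small for the context, larger than that of 25.3% of the CG regions.

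Set among all exonic CG regions, 6 of the 7 CG regions came from the highly methylated end. The table's exonic CG regions had a median of 27.1% in Col-0, with quartiles of 12.2% and 50.8%. All CG regions of the 6 genes but that of CLSY2 were above 50% in Col-0. Of the 551 exonic CG regions above 50% in Col-0, 33.9% were higher in rbp-ko-1. The 364 lower ones among them had medians of 39.0% in rbp-ko-1 and 67.5% in Col-0, with a median size of difference of 26.1 points. NRPD1 was close to that size with 25.9 points, and RDR2 and CLSY1 were under its lower quartile of 18.2 points. The 187 higher ones had medians of 85.5% in rbp-ko-1 and 66.7% in Col-0, with a median size of 17.9 points and quartiles of 11.5 and 22.5 points. NRPD1, with 28.6 points, lay above the upper quartile. RDR2 lay within the quartiles and DCL1 at the lower one. CLSY2 belonged to the 1187 lower exonic regions of 50% or less in Col-0, whose medians were 1.94% in rbp-ko-1 and 19.4% in Col-0.

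**Figure D3:**
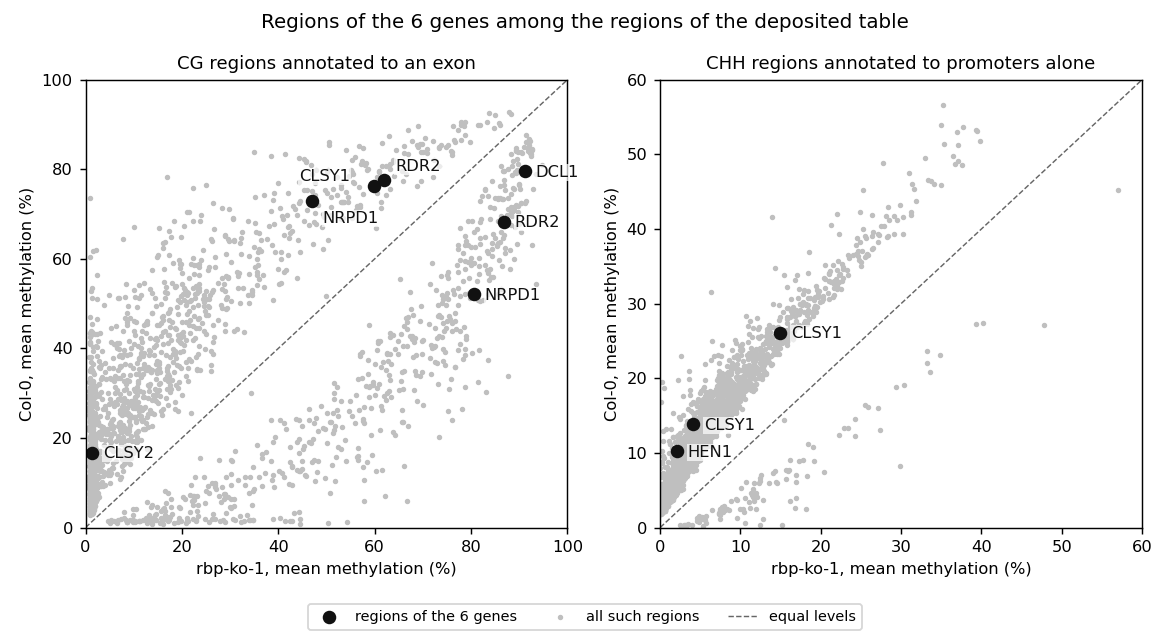
Mean methylation in rbp-ko-1 (horizontal axis, %) and in Col-0 (vertical axis, %) at all 2154 exonic CG regions (left) and all 3441 CHH regions annotated to promoters alone (right), with the regions of the 6 genes in black. Points above the dashed line are lower in rbp-ko-1. The regions of NRPD1 and RDR2 lie on both sides of it, and the CHH regions of CLSY1 and HEN1 lie above it.

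For the region with the largest area statistic in each gene, the most similar region of another gene was sought, by the straight-line distance between the pairs of genotype means, among regions of the same context with at least 10 cytosines. The distance rests on 2 means per region. The nearest to the higher NRPD1 region was an exonic region of AT3G09450, with 79.7% in rbp-ko-1 and 51.4% in Col-0, at 1.14 points. For the lower RDR2 region it was AT4G10630 (0.682 points), and for DCL1 AT2G13150, annotated as a bZIP transcription factor (0.895 points). The low levels of CLSY2 were nearest to those of AT1G54930, annotated as a zinc knuckle protein (0.268 points). In CHH, the long CLSY1 region was nearest to the promoter of AT3G16840 (0.282 points), and HEN1 to a region annotated to AT4G05235 and AT4G07835 (0.101 points).

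Other regions lay near RDR2 and CLSY1 but not near the other genes. Within 10 kb of a region of these genes, measured edge to edge, lay 5 regions of other genes, 2 by RDR2 and 3 by CLSY1. NRPD1, CLSY2, HEN1 and DCL1 had 0 regions of other genes within this distance. By RDR2, both were CHH regions in a promoter that the table lists under AT4G05855 and under ath-MIR5020b. RefSeq gives AT4G05855 the name MIR5020b, a microRNA gene. The nearer one, at 3566 bp (chromosome 4, 6787801 to 6788099), had 1.17% in rbp-ko-1 and 4.65% in Col-0. The farther one, at 4659 bp (chromosome 4, 6788894 to 6789090), had 2.37% in rbp-ko-1 and 6.27% in Col-0. Both were low in methylation and lower in rbp-ko-1, while the exons of RDR2 held regions of both directions.

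By CLSY1, the 3 regions lay 8368 to 9090 bp from its exonic CG region, in the promoter of the neighbouring gene AT3G42660, annotated as a WD-40 repeat protein. Its CHH regions had 1.65% in rbp-ko-1 and 8.16% in Col-0 (chromosome 3, 14749703 to 14750083), and 5.05% in rbp-ko-1 and 12.1% in Col-0 (chromosome 3, 14750485 to 14750655). Its CG region of 5 cytosines (chromosome 3, 14750719 to 14750805) had 4.76% in rbp-ko-1 and 25.6% in Col-0. All 6 regions of this stretch, those of CLSY1 included, were lower in rbp-ko-1. Of the 2755 nuclear CG regions in the table, 30.2% had no other region within 10 kb, as at DCL1 and CLSY2. Of the 5791 nuclear CHH regions, 9.24% had none, as at HEN1.

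**Figure D4:**
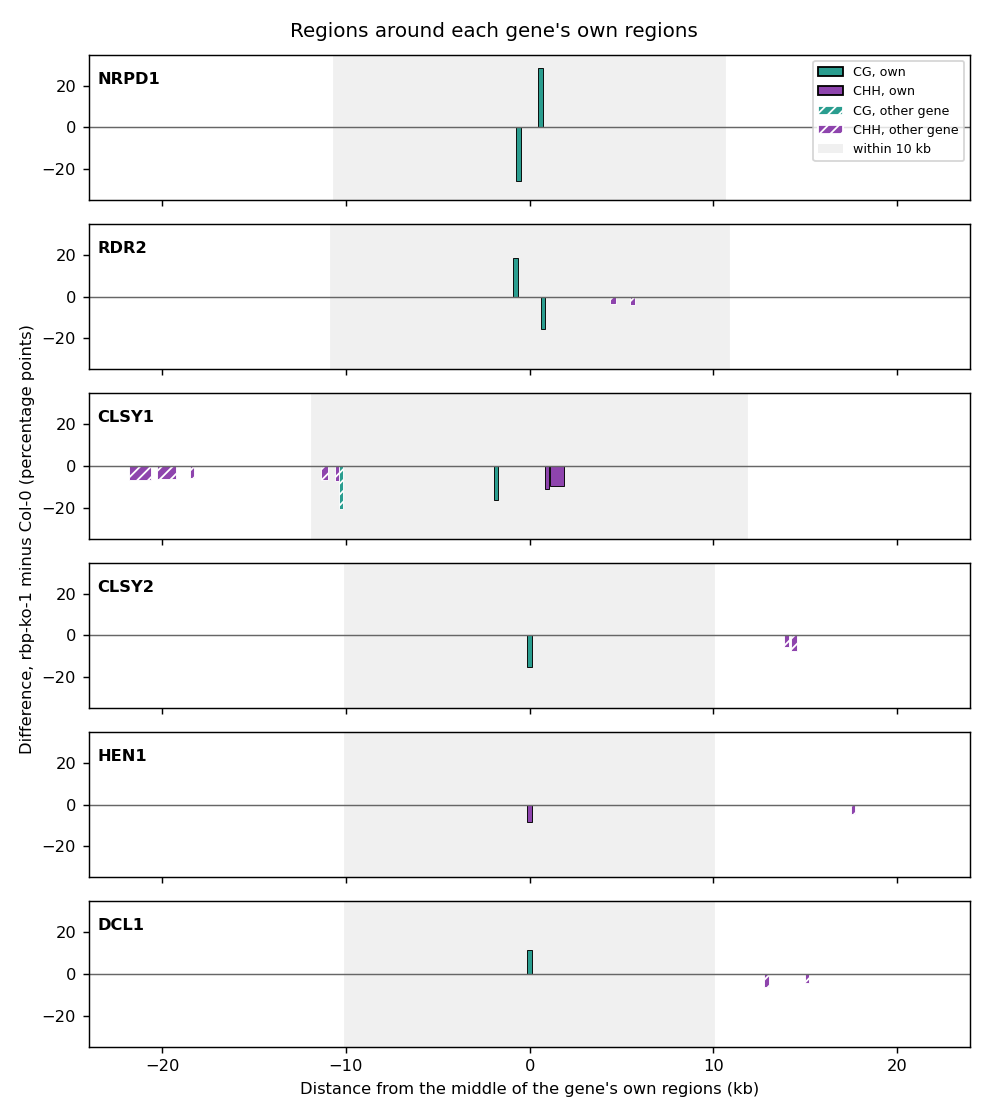
Difference in methylation (rbp-ko-1 minus Col-0, percentage points, vertical axis) at regions within 20 kb of the regions of each gene, by distance from the middle of the gene's own regions (kb, horizontal axis). Plain bars are the gene's own regions, hatched bars those of other genes, and the narrowest bars are widened to be visible. All bars above 0 belong to NRPD1, RDR2 or DCL1 themselves, and all hatched bars are below 0.

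On a wider scale CLSY1 had the most regions around it. Within 100 kb either side of its regions lay 32 regions, 28 of them CHH and all lower in rbp-ko-1. That was more regions than in 92.6% of the 593 windows of 200 kb along the nuclear chromosomes, whose median was 12. The windows around RDR2 and HEN1 held 17 and 13 regions, and those around CLSY2 and NRPD1 held 10 and 9. DCL1 lies so near the end of chromosome 1 that its window covered 129 kb, with 6 regions. Regions of other genes in the 6 windows were lower in rbp-ko-1 in 75 of 77 cases (97.4%), and the 2 higher ones lay by CLSY2. Of all nuclear regions 89.6% were lower, but the shares do not compare directly. The own regions of the 6 genes, 3 of them higher, were left out of the share for the windows only. That share was also not matched by context, and over all regions 97.4% were lower in CHH but 74.7% in CG. The higher CG regions of NRPD1, RDR2 and DCL1 were each the only higher region in their window. Those windows held only 4, 4 and 3 CG regions, own ones included, and otherwise CHH regions, which are seldom higher in the table.

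**Figure D5:**
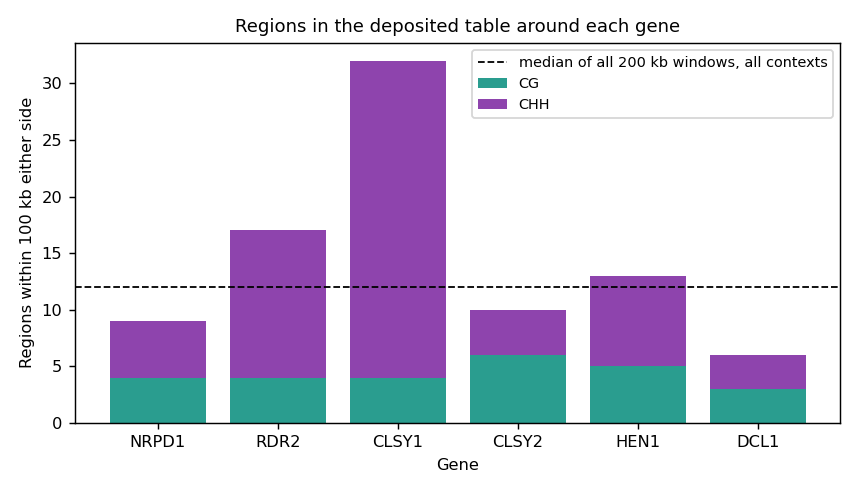
Number of regions in the deposited table within 100 kb either side of each gene's own regions, by context, for the 6 genes. The CLSY1 window holds 32 regions, 28 of them CHH, while the dashed line marks the median of 12 over the 593 windows of the nuclear chromosomes. No CHG region lay in these windows, and the DCL1 window covers 129 kb.

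Of 14 genes listed for this arm, the 6 described here were those with a region, since they were chosen for having one. The count of 0 among the other 8 is therefore fixed by that choice and is no result. These 8 were NRPD2 and NRPD4, further polymerase subunits, CLSY3 and CLSY4, related to CLSY1 and CLSY2, SHH1, which helps place RNA polymerase IV, and the dicer genes DCL2, DCL3 and DCL4. The 6 genes listed beside DCL1 and HEN1 for microRNA production and use, HYL1, SE, HST, HESO1, AGO1 and DDL, had 0 regions as well. Nothing is read from this either, because DCL1 and HEN1 were set apart for having a region. A gene without an entry has no region by the authors' criteria, and its levels were not analysed here.

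In the targeting arm, where small RNAs meet RNA polymerase V, 5 of 19 listed genes (26.3%) had a region, near the 22.0% of all 27444 nuclear protein-coding genes. Each had 1 region, and the 3 CG and 2 CHH regions were all lower in rbp-ko-1, as were 74.7% of the CG and 97.4% of the CHH regions in the whole table. At AGO6, an argonaute gene, the CG mean was 1.27% in rbp-ko-1 and 12.8% in Col-0. At the methyltransferase gene DRM1 it was 1.24% in rbp-ko-1 and 6.40% in Col-0, and at DRD1, a chromatin remodeller gene, 12.01% in rbp-ko-1 and 32.7% in Col-0. The CHH mean was 11.4% in rbp-ko-1 and 23.3% in Col-0 at the promoter of MORC6, a silencing ATPase gene. At SUVH2, whose protein helps to place RNA polymerase V, it was 1.13% in rbp-ko-1 and 5.15% in Col-0. The CG regions of AGO6 and DRM1 were exonic, and that of DRD1 was annotated to a promoter. Neither exonic region was above 50% in Col-0, while NRPD1, RDR2, CLSY1 and DCL1 each had an exonic CG region above that level. Of all exonic CG regions, 551 of 2154 were above it. None of the 5 genes had a region higher in rbp-ko-1, unlike NRPD1, RDR2 and DCL1. Of all CG regions, 25.3% were higher. With so few regions in that arm, the absence of both kinds is not remarkable. CLSY2 and HEN1 had neither kind as well. These differences between small groups of chosen genes were not tested.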

How the data were processed

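Whole-genome bisulfite sequencing was done on 3 libraries of rbp-ko-1 and 3 of Col-0. The submitters' processing notes name the build TAIR10 and the tools Bismark, MethylDackel, FastQC and Trimmomatic. Not given in the sources used here are the region caller and its thresholds, the annotation, the promoter length and the bisulfite conversion rate. The authors deposited each region's mean methylation as a fraction, 1 value per genotype over its libraries, printed here as percent. Their area statistic is a deposited score and was used only to rank regions.

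The 18828 entries were reduced to 9213 regions by chromosome, start, end and context, with Python 3.11.15 and pandas 2.3.3. Differences were computed from the 2 means. Gaps are the bases between region edges. Helper functions were tested on simulated data. No test was run, because the table holds no values per library, counts or coverage. Depth is unknown.

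The 6 genes, the 3 comparison lists (33 genes) and the descriptions were chosen with earlier results of these data known. Genes are named that are among the 6, lie within 10 kb of them, are listed genes with a region, or are nearest in level. Gene types and synonyms came from RefSeq's genes (TAIR10.1), where all 6 identifiers were found, and coordinates are those of the deposited table. The alternatives changed the minimum cytosines, difference, length, area statistic, annotated feature and distance.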

Additional observations from a re-analysis of the deposited data

How the results depend on the processing

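The area statistic had the sign of the difference in all 10 regions, as in all regions of the table but 1, so this is no independent check. Main values were 10 regions (7 lower), 6051 protein-coding genes with a region, 5 targeting-arm genes, and shares of lower regions of 74.7% in CG, 89.1% in CHG and 97.4% in CHH. Counts that moved by over 1.5 times, and shares that left their exact binomial 95% interval, are given by setting. That interval served only as a yardstick, because the shares cover all regions of the table and not a sample of them. Smaller moves were 8 regions (6 lower) with at least 10 cytosines, 8 (5 lower) with at least 10 points, 7 with at least 100 bp and 7 with gene bodies only. Genes with a region were 4852 with at least 10 cytosines and 4205 with at least 100 bp. With at least 10 cytosines there were 3 targeting-arm genes, and 78.1% of CG regions were lower. With a difference of at least 10 points there were 3338 genes, 3 targeting-arm genes, 71.8% in CG and 95.5% in CHH. With at least 20 points, 2 regions were left (1 lower and 1 higher, both of NRPD1), with 1794 genes, 1 targeting-arm gene, 68.9% in CG, 84.5% in CHG and 76.5% in CHH, the last over 17 regions. With at least 100 bp there were 4 lower regions, 3 targeting-arm genes, 79.99% in CG and 97.8% in CHH. At or above the median area statistic of each context there were 4 regions (2 lower), 3339 genes, 1 targeting-arm gene, 80.3% in CG and 99.5% in CHH. With gene bodies only there were 4 lower regions, 3051 genes, 3 targeting-arm genes, 72.1% in CG and 98.2% in CHH. Leaving out mitochondrial DNA and its copy on chromosome 2 (3.2 to 3.6 Mb) gave 72.4% in CG and 84.6% in CHG. These settings keep fewer regions by construction. The 5 regions of other genes within 10 kb became 2 within 5 kb and 13 within 20 kb. The lists of 8 and 6 genes, at 0 before any of these limits, can only stay at 0. The share of regions with a smaller difference depends on the measure and on the regions compared. Alternatives were the area statistic, the relative difference, and the same difference among regions of the same direction only. In 27 of 30 cases they moved the share outside its exact binomial 95% interval. By relative difference, CLSY2, with its low rbp-ko-1 level, was above 87.6% of CG regions and DCL1 above 3.64%. The averages over both regions of NRPD1 (1.34 points as a plain mean, 8.11 weighted by length) and of RDR2 (1.47 as a plain mean) changed sign; these weights were chosen after seeing the data.

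No paired analysis was possible because the table holds 1 mean per genotype and no value per library, and no library could be left out for the same reason. The distance from the gene in place of the region was not run, since the gene table is of another assembly. Regions of 7 to 15 cytosines, as in most exons here, give means whose precision the table does not show.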
